A study of Mus musculus with 6 samples.

Results

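The 41 genes described here mark the phases of the cell division cycle. Of these, 19 serve DNA replication in S phase, 2 are D cyclins, which act in G1, and 20 serve the G2 phase and mitosis (together G2M). They were taken by symbol, all 41 were found among the 32285 genes of the matrix, each on 1 row, and their unique molecular identifiers (UMIs, 1 per captured RNA molecule) were counted in single cells of the mouse embryo at stage E10.5. The cells came from the microdissected cardiogenic region, which also holds non-cardiac mesoderm, ectoderm and endoderm, of wild-type C57BL/6 embryos. Of the 6 samples, 3 came from normal glycemic females pretreated with vehicle and 3 from hyperglycemic females given streptozotocin, which kills the insulin-producing cells of the pancreas. All fathers were normal glycemic. The hyperglycemia was the mother's, no gene was altered, and the labels do not say how many embryos a sample holds.

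The cell barcodes carry a number from 1 to 6 that separates 6 libraries, and no file used here ties a number to a sample or a treatment. The question the samples were made for, streptozotocin against vehicle, was therefore not tested. The libraries are given one by one, without a group, and show how far values vary from library to library. A parting of the libraries given under the other observations was read from the values and is not a known group. Values over all libraries carry 95% intervals (exact Poisson for levels, exact binomial for shares, and the binomial-derived interval for ratios). These intervals cover counting error and nothing else.

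A cell that divides first copies its DNA and then separates the copies. In G1, D cyclins with their kinase partners phosphorylate the retinoblastoma protein, which releases E2F factors to switch on the replication genes. These include the Mcm2 to Mcm7 subunits of the replicative helicase, its loading factor Cdc6 and its partner Cdc45. Others are the sliding clamp Pcna and the nucleotide enzymes Rrm1, Rrm2 and Tyms. The G2M genes come later and include the mitotic kinase Cdk1, its partners Ccnb1 and Ccnb2, the kinases Aurka, Aurkb, Plk1 and Bub1, and the kinesins Kif11 and Kif23. The early embryonic heart grows by division of its cardiomyocytes while they already contract. Neurons, by contrast, leave the cycle as they differentiate.

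Promoter sequences are shown first because the S and the G2M genes differ in the short elements that textbook models assign to them. RefSeq promoters of build GRCm38.p6, 300 bases long (250 before the start and 50 after), were found for 33 of the 41 members, 16 S and 17 G2M. Mcm4, Gins2, Ccne2, Ccnd1, Ccnd2, Ccna2, Aurkb and Tpx2 are named without a promoter. The cell cycle homology region (CHR), searched as TTTGAA on both strands, was present in 12 of 17 G2M promoters (70.6%) and 2 of 16 S promoters (12.5%), against 20.2% of 27025 promoters of all genes. All 12 of those G2M promoters also held a CCAAT box, searched as CCAAT on both strands, a pairing found in 7.97% of all promoters. A CCAAT box was present in 15 of 17 G2M and 11 of 16 S promoters, against 41.1% of all. An E2F site, searched on both strands as any of TTTGGCGC, TTTCGCGC, TTTCCCGC and TTTGCCGC, was present in 7 of 16 S promoters (43.8%) and in 1 of 17 G2M promoters, that of Cdk1, against 2.6% of all. Each element was counted without regard to overlap with another. The forms searched were chosen after several forms had been counted, so the shares describe the forms kept and are no test. A match is a description of letters and shows no binding.

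The 150 bases before the start are printed for 6 members, 3 G2M genes named in the results and 3 S genes, 5′ to 3′ on the gene's own strand. The printed genes were chosen after the forms had been counted. All 3 S genes hold an E2F form, found in 7 of 16 S promoters and not in those of Rrm2 and Pcna. All 3 G2M genes hold a CHR, found in 12 of 17 G2M promoters. Capitals mark the CHR, CCAAT and E2F letters in either orientation. Cdk1 lies at chr10:69352913-69353062 (minus strand), Hmgb2 at chr8:57511693-57511842 (plus strand), Ube2c at chr2:164769779-164769928 (plus strand), Hells at chr19:38930840-38930989 (plus strand), Mcm5 at chr8:75109359-75109508 (plus strand) and Mcm6 at chr1:128359706-128359855 (minus strand).
Cdk1: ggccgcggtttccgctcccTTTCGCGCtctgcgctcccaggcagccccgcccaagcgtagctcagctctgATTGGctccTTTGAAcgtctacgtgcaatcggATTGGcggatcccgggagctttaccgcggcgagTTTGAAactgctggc
Hmgb2: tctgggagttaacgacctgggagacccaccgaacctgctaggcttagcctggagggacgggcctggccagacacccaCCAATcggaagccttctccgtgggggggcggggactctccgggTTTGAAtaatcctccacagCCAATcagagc
Ube2c: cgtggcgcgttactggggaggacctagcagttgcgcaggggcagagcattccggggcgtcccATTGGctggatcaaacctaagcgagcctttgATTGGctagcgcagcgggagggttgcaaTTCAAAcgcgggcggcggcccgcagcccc
Hells: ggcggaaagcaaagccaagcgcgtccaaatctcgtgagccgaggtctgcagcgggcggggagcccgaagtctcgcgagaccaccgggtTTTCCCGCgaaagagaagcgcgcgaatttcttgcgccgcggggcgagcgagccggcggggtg
Mcm5: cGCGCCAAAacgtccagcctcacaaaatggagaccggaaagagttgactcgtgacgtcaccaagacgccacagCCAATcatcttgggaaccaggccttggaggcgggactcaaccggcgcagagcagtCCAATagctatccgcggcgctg
Mcm6: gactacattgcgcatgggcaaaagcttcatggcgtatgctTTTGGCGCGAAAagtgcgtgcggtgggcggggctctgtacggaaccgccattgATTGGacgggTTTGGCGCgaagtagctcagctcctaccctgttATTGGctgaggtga
The Cdk1 sequence held all 3 kinds of element, with CHR letters beginning 71 and 15 bases before the start. Hmgb2 and Ube2c each held 1 CHR and 2 CCAAT boxes and no E2F form. The Hells sequence held an E2F form 62 bases before the start and neither of the other elements. Mcm5 and Mcm6 held E2F forms and 2 CCAAT boxes each, and in Mcm6 a pair of E2F forms on opposite strands overlapped, at 110 and 106 bases before the start, the one overlap in the printed sequences.

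Of 53362 barcodes, 17029 had under 2500 detected genes and 371 more had over 10% of UMIs from mitochondrial genes, leaving 35962 cells, 4903 to 7136 per library. The libraries held 200462921 to 248426458 UMIs, and the median per retained cell was 30533 to 35634. Libraries shared 141 of 35820 barcode sequences, at most 15 between any pair. Each cell was placed in the class whose markers it carried most fully, which gave 25044 cells (69.6%) in 16 classes of 53 to 8925 cells, each named "-like" after its marker list. No cell cycle member was a marker. The thresholds of this gate were set after marker counts and class sizes had been seen. The other 10891 cells (30.3%) had no class, 10497 of them because the leading class was not ahead by the margin, and these cells had fewer UMIs per cell (median 26946 against 35885.5).

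Markers were enriched in their classes to differing degrees. The gate used these same markers, so their enrichment was built in and gives no independent support for a class name. All markers were enriched in the cardiomyocyte-like (10 of 10), endothelium-like (10 of 10), erythroid-like (8 of 8), neuron-like (8 of 8) and neural crest mesenchyme-like (10 of 10) cells. The same held for the myeloid-like, megakaryocyte-like, epicardium-like, endocardial cushion mesenchyme-like and neural crest and glia-like cells. In the branchiomeric muscle-like and smooth muscle-like cells 5 of 8 markers were enriched. The count was 7 of 9 in cells like second heart field and pharyngeal mesoderm and 6 of 7 in paraxial mesoderm-like cells. In surface ectoderm-like cells it was 8 of 10 and in endoderm-like cells 9 of 10. Hand1 and Dkk1 stood among the leading genes of the smooth muscle-like cells, and the granule genes Prtn3 and Mpo among those of the myeloid-like cells. Of the endoderm-like cells 40.5%, and of the surface ectoderm-like cells 39.4%, led the next class by little more than the margin. So did 27.2% of paraxial mesoderm-like, 23.9% of smooth muscle-like and 22.8% of endocardial cushion mesenchyme-like cells. Among cells like second heart field and pharyngeal mesoderm 20.2% did.

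By the call described next, cycling cells were the majority of the pooled cells in each of the 16 classes. Each cell was thinned at random to 5000 UMIs, so that deep and shallow cells could be set side by side. It was called cycling with at least 8 UMIs summed over the 19 S members or at least 8 over the 20 G2M members. Over all 25043 gated cells deep enough, 85.9% (85.46 to 86.33) were cycling, and in the 6 libraries 83.91% to 87.46%. Without thinning the share was 98.2%. The cells with no class lay close by, at 87.97%. The majority was not firm in every class: the interval of the 53 megakaryocyte-like cells was 42.28 to 70.16. By the G2M sum alone the neuron-like share was 49.28%.

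The G2M sum had 2 peaks over the gated cells, with a shallow dip between them, and the S sum had 1. The G2M peaks lay at 1 UMI (966 cells) and at 20 (747 cells), with 491 cells at the lowest point between them, 6 UMIs. The S sum had a single peak at 6 UMIs, so the cut of 8 in it divides a continuous range. At 7 or 8 UMIs lay 1058 cells by the G2M sum and 3388 by the S sum. The cut was set on these distributions over all gated cells.

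Neural crest mesenchyme-like cells, which build much of the pharyngeal arches, were nearly all cycling, at 98.85% (98.6 to 99.06, 8925 cells), and their 6 libraries spanned 98.38% to 99.43%. Paraxial mesoderm-like cells followed at 98.25% (96.44 to 99.3, 401 cells). The neural crest mesenchyme-like share was the higher in 3 of 6 libraries, so these neighbours did not differ beyond the spread of the libraries. All 77 myeloid-like cells were cycling, with a lower limit of 95.32% and 1 library of 20 cells or more.

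Cardiomyocyte-like cells lay at the other end, at 61.51% (59.81 to 63.18, 3268 cells). Their 6 libraries spanned 57.82% to 64.63%, below the range of every other class that had all 6 libraries, each of which was higher in 6 of 6 libraries. Neuron-like cells stood beside them at 62.59% (56.61 to 68.3, 278 cells), with 5 libraries from 50% to 71.74%. The cardiomyocyte-like share was the higher in 2 of 5 libraries, so the order of these classes was not settled by the data. The 53 megakaryocyte-like cells had the lowest pooled share, 56.6%, with a wide interval of 42.28 to 70.16 and no library of 20 cells.

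Between these ends the shares formed a gradual series. Branchiomeric muscle-like cells reached 92.19%, neural crest and glia-like cells 89.24%, those like second heart field and pharyngeal mesoderm 88.63% and endothelium-like cells 85.92%. Smooth muscle-like cells reached 85.47%, epicardium-like cells 83.15% and surface ectoderm-like cells 80.79%. Erythroid-like cells (79.07%), endoderm-like cells (79.03%) and endocardial cushion mesenchyme-like cells (78.83%) could not be told apart by this share. They differed in its make-up: 53.14% of erythroid-like cells reached 8 by the G2M sum alone, against 32.06% and 32.8%. The erythroid-like share also depended on how depth was handled, as given below. Among neighbours in this order with more than 1 library each, the library ranges failed to overlap in 1 pair, endocardial cushion mesenchyme-like above neuron-like cells (72.95% to 86.5% and 50% to 71.74%).

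**Figure D1:**
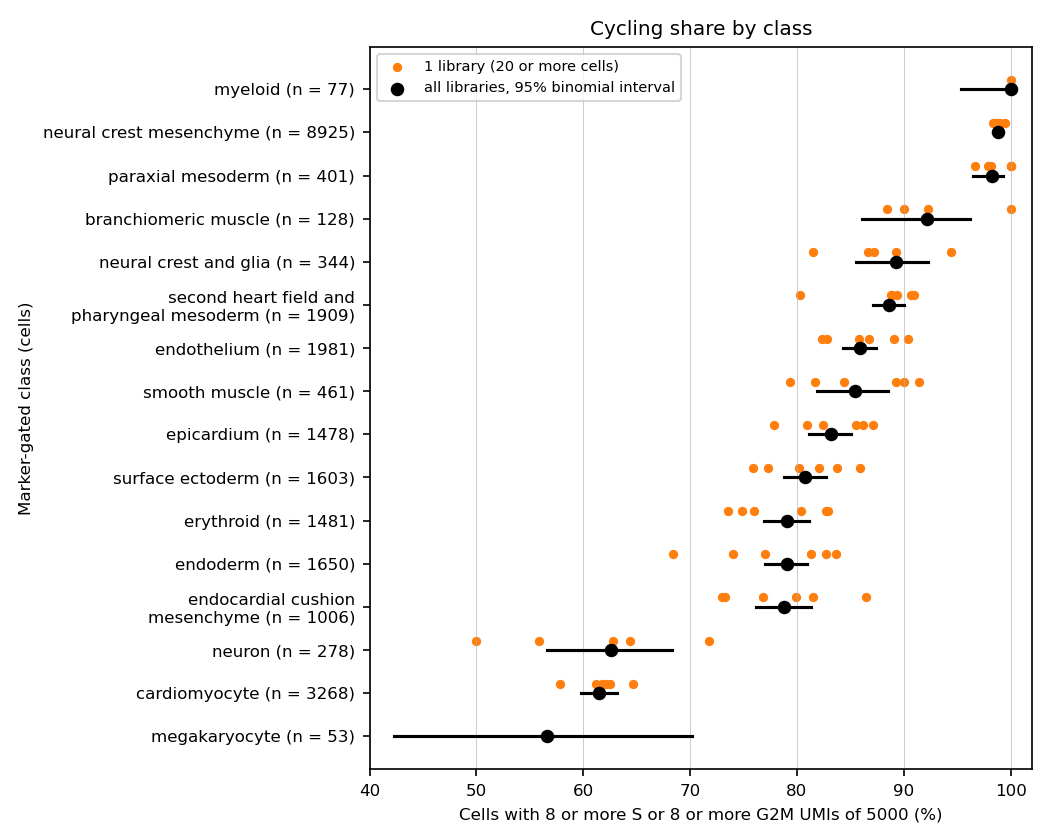
Share of cells with 8 or more S UMIs or 8 or more G2M UMIs after thinning to 5000 UMIs (x axis, %), for 16 marker-gated classes (y axis, with cell numbers). Black points are all libraries with 95% binomial intervals, orange points single libraries of 20 or more cells; neuron-like and cardiomyocyte-like cells sit between 50% and 71.74% in each library, and neural crest mesenchyme-like cells above 98%.

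Every class held cells past the cuts, so none gave a background level. Neuron-like cells were meant to serve as one, but 49.28% of them reached the G2M cut. The first quartile of the G2M sum was 2 UMIs of 5000 in neuron-like and in cardiomyocyte-like cells and 1 in megakaryocyte-like cells. In erythroid-like cells it was 7. The part of free RNA from the droplets, doublets left in and misplaced cells in the calls was not tested, so "cycling" names the call and not a measured division.

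Erythroid-like cells depended on how depth was handled. Genes at least 4-fold higher in a class than in the rest took 43.5% of UMIs in erythroid-like cells, 197 genes led by globins, and 12.6% in cardiomyocyte-like cells. With these genes left out before thinning, a setting added after the data were seen, the erythroid-like share was 98.78%. The cardiomyocyte-like share was then 63.19% and the neuron-like share 61.87%. Leaving out the cells called as doublets gave 58.64% for cardiomyocyte-like and 60.27% for neuron-like cells.

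The distribution of the G2M sum differed in shape as well as in level. In cardiomyocyte-like and neuron-like cells it had a large group near 0 and a long upper tail, with medians of 11 and 6.5 UMIs. In neural crest mesenchyme-like cells it was a single broad peak with a median of 23. Erythroid-like cells had a single narrow peak with a median of 10, so that many of them lay close to the cut.

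**Figure D2:**
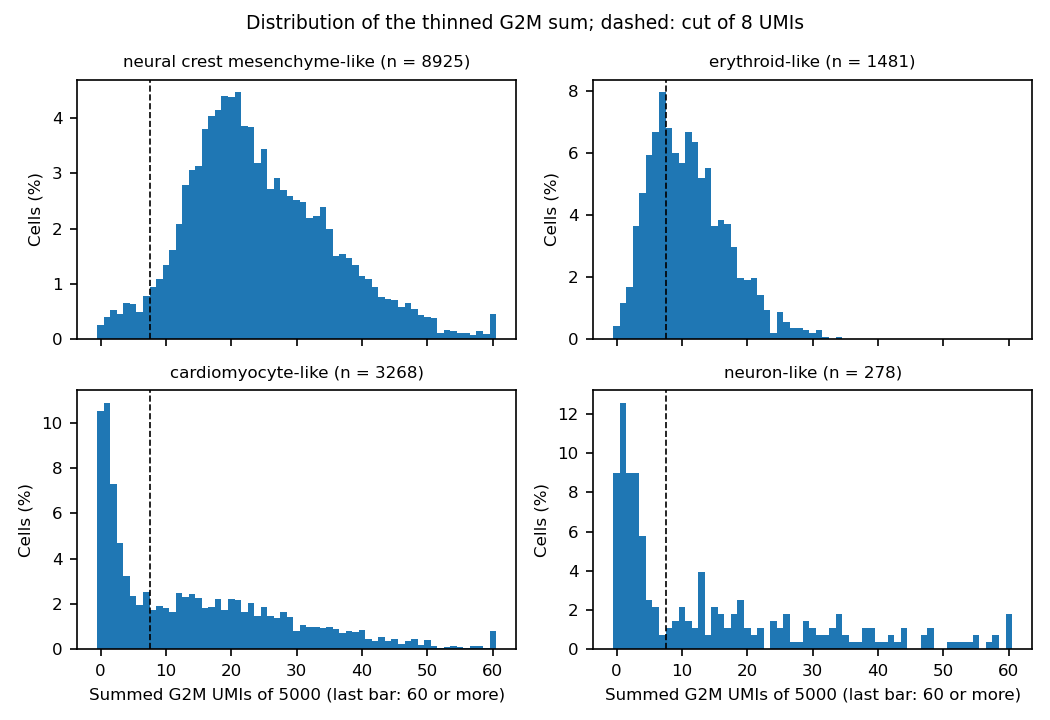
Share of cells (y axis, %) by summed UMIs of the 20 G2M members after thinning to 5000 UMIs (x axis, last bar 60 or more), in 4 classes; the dashed line is the cut of 8. Neuron-like and cardiomyocyte-like cells pile up near 0 with a tail to 60, and neural crest mesenchyme-like cells form 1 peak around 20.

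Cells were next divided by which sums reached 8. In neural crest mesenchyme-like cells 79.08% reached both, 16.77% the G2M sum alone, 2.99% the S sum alone and 1.15% neither. In cardiomyocyte-like cells 18.57% reached both, 38% the G2M sum alone, 4.93% the S sum alone and 38.49% neither. Cardiomyocyte-like cells thus had few cells with S signal, 23.5% in all (21.49% to 25.19% in the libraries), against 56.58% with G2M signal. Neuron-like cells reached 36.33% by the S sum, above cardiomyocyte-like cells in 5 of 5 libraries. Their G2M share was below that of cardiomyocyte-like cells in 4 of 5 libraries.

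Cells that reached both sums also held more RNA. Their median UMIs were 1.26 times those of cells that reached neither over all gated cells, and 1.2 to 1.7 times within the classes that could be compared. In cardiomyocyte-like cells the medians were 56311 and 33434 UMIs, with the former the higher in 6 of 6 libraries. In neural crest mesenchyme-like cells they were 36456 and 21589. The part of doublets in this difference was not tested.

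The balance of S to G2M transcripts varied less between classes than the level of either sum did. Summed over all gated cells, the S members made up 1876 counts per 1000000 UMIs (CPM) and the G2M members 4216 CPM, a ratio of 0.4448 (0.4441 to 0.4456). In libraries 1 to 6 the ratio was 0.4708, 0.4572, 0.4811, 0.4298, 0.4056 and 0.4331, a spread far wider than the counting interval. Class ratios ran from 0.3275 to 0.5029, a 1.54-fold range, against a 2.31-fold range for the S sum and a 2.20-fold range for the G2M sum. Both sums are divided by the same UMIs, so a shift of a whole class cancels in the ratio but not in the sums. The lowest G2M sum, 2408 CPM, was that of erythroid-like cells, where the median gene stood at 0.36-fold of other gated cells.

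Cardiomyocyte-like cells had the lowest ratio, 0.3275 (0.3257 to 0.3293). Their S sum was 1084 CPM and their G2M sum 3311 CPM. The 6 libraries gave ratios of 0.2893 to 0.3609, below endocardial cushion mesenchyme-like cells (0.3903) in 6 of 6 libraries. Exceptions to this order were single libraries of small classes: the ratio of branchiomeric muscle-like, neural crest and glia-like and neuron-like cells was lower than that of cardiomyocyte-like cells in 1 library each.

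Neural crest mesenchyme-like cells had the highest ratio among classes with all 6 libraries, 0.4954 (0.4941 to 0.4967), with an S sum of 2504 CPM and a G2M sum of 5055 CPM. It lay above erythroid-like cells in 6 of 6 libraries. Among classes with all 6 libraries, the ratio of epicardium-like and surface ectoderm-like cells was the higher in library 2 (0.5169 and 0.4854, against 0.4801), and that of paraxial mesoderm-like cells in library 1 (0.5305 against 0.5146). The pooled myeloid-like ratio of 0.5029 was higher, but the 1 library with 20 such cells gave 0.4351. Erythroid-like cells (0.4579) and neuron-like cells (0.4536) had low sums, 1103 and 2408 CPM and 1409 and 3106 CPM, in nearly the proportion of all gated cells.

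Hmgb2, a chromatin protein of the G2M list, made up 31.7% of the G2M sum. Without it the ratio over all gated cells was 0.6512. Cardiomyocyte-like cells remained lowest at 0.4619 and neural crest mesenchyme-like cells stood at 0.7504.

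**Figure D3:**
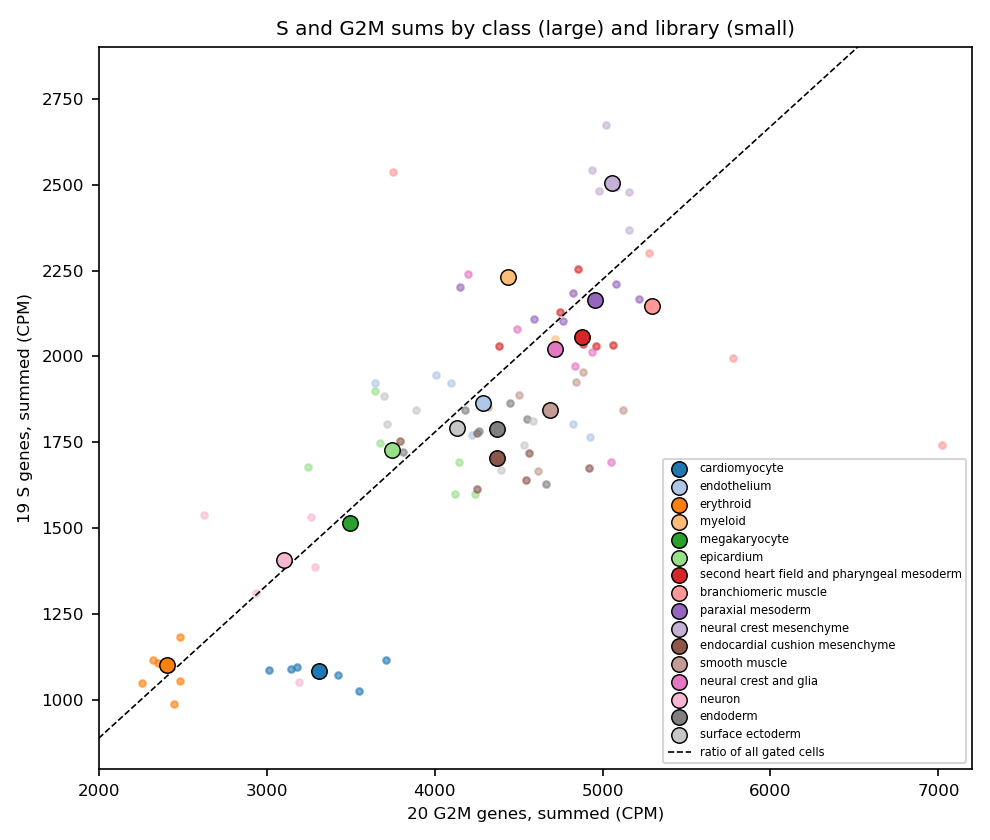
Summed level of the 20 G2M members (x axis, CPM) against that of the 19 S members (y axis, CPM), for each class (large points, all libraries) and each library of 20 or more cells (small points). The dashed line is the ratio over all gated cells, 0.4448; cardiomyocyte-like points lie below it, at 1084 and 3311 CPM, and neural crest mesenchyme-like points near the top, at 2504 and 5055 CPM.

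Among the S genes, Rrm2 and Pcna had the highest UMI levels. The kit counts molecules at their 3′ ends, so levels were not divided by gene length and are compared between classes, not between genes. Rrm2 (ENSMUSG00000020649), the regulated subunit of ribonucleotide reductase, was highest in neural crest mesenchyme-like cells, at 338.3 CPM, with library values of 322.1, 316.7, 352.5, 347.4, 337.4 and 358.6. In cardiomyocyte-like cells the libraries gave 131.2, 126.9, 129.4, 146.2, 151.3 and 155.1 CPM. In erythroid-like cells they gave 71.13, 64.58, 77.8, 75.27, 72.38 and 65.39 CPM. These 3 sets did not overlap, and the highest class was 4.69 times the lowest. In erythroid-like cells 80.9% of all genes of at least 5 CPM were at or past 1.5-fold lower than in other gated cells. Here and below, a lowest place there is by itself not particular to a member.

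Pcna (ENSMUSG00000027342), the sliding clamp of DNA polymerase, had a smaller range and another lowest class. Neural crest mesenchyme-like cells were highest at 234.4 CPM (libraries 216.9, 221.1, 237.1, 251.5, 236.7 and 247.3). Cardiomyocyte-like cells were lowest at 113.3 CPM (libraries 102.6, 108.5, 104.1, 118, 128.4 and 122.2). Every library was higher in the former.

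Hells (ENSMUSG00000025001), a chromatin remodeler needed for DNA methylation, had the widest range of the S members, 9.20-fold. It was highest in the 77 myeloid-like cells at 185.4 CPM and next highest, at 172.4 CPM, among neural crest mesenchyme-like cells (libraries 191.5, 176.5, 186.9, 151.8, 161.5 and 163.4). In cardiomyocyte-like cells the libraries gave 54.79, 54.32, 48.63, 40.5, 48.39 and 52.78 CPM. Erythroid-like cells were lowest, with libraries at 22.3, 19.83, 17.49, 26.96, 20.47 and 19.82 CPM. Each step down from neural crest mesenchyme-like cells was larger than the spread of the libraries.

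The remaining S members differed in their lowest class. Mcm2, Mcm3, Mcm5, Mcm6, Mcm7, Tyms, Slbp, Uhrf1 and E2f1 were lowest in cardiomyocyte-like cells. Tyms, thymidylate synthase, stood at 75.16 CPM there and 214.7 CPM in endothelium-like cells. Slbp, which binds histone mRNA, ran from 72.79 to 216.8 CPM, and Uhrf1, which maintains DNA methylation, from 34.84 to 104 CPM, both highest in neural crest mesenchyme-like cells. Mcm4, Rrm1, Gins2 and Ccne2 were lowest in erythroid-like cells, Cdc6 and Cdc45 in neuron-like cells and Ccne1 in megakaryocyte-like cells.

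E2f1 (ENSMUSG00000027490) and Ccne1 (ENSMUSG00000002068) each had a highest class shared with no other S member, as did Tyms, Rrm1 and Ccne2. E2f1, the factor that switches on replication genes, was highest in neuron-like cells, at 66.63 CPM, with libraries 1, 2, 4, 5 and 6 at 56.65, 72.81, 69.92, 59.78 and 72.15. In neural crest mesenchyme-like cells, next in order, the 6 libraries lay between 36.64 and 46.86 CPM. Ccne1, cyclin E1, which starts S phase, was highest in paraxial mesoderm-like cells, at 139.8 CPM, with libraries at 229.1, 144.8, 227.5, 104.5, 120.3 and 121.8. That range takes in the neural crest mesenchyme-like libraries, 115.9 to 123.8 CPM, so these neighbours overlapped. Both genes were named after their values were seen.

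The D cyclins had the widest ranges between classes of the 41 members. Ccnd1 (ENSMUSG00000070348) was highest in epicardium-like cells, at 443.5 CPM, with libraries at 480.1, 531.2, 501.2, 300.2, 314.7 and 368.7. Endocardial cushion mesenchyme-like cells followed at 270.3 CPM (210.2 to 350.7 in the libraries). The cardiomyocyte-like libraries gave 47.35, 48.11, 53.25, 39.43, 41.15 and 42.12 CPM.

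Erythroid-like cells were lowest for Ccnd1, at 7.22 CPM, with libraries at 5.56, 2.39, 4.73, 24.41, 8.70 and 8.63. Library 4 stood above the other libraries there. The ratio of highest to lowest class was 61.4, and it depended on the cells counted: 226.9 without cells called as doublets and 97.1 at a gate margin of 0.2. The order of the classes named was that given above, and the size of the erythroid-like gap was not settled.

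Ccnd2 (ENSMUSG00000000184) was also highest in epicardium-like cells, at 665.3 CPM, with libraries at 762.2, 764.4, 751.1, 457, 463.4 and 544.4. Branchiomeric muscle-like cells stood at 538.7 CPM (426.4 to 739.7 in 4 libraries), and the library ranges overlapped. In cardiomyocyte-like cells Ccnd2 stood at 438.6 CPM, with libraries at 445, 419.4, 473.8, 397.3, 444.7 and 455.8. There it was the 1 member at or past 1.5-fold higher than in all other gated cells (1.64-fold), where 12.7% of all genes tested were, while Ccnd1 stood at 0.269-fold. Erythroid-like cells were lowest, at 41.95 CPM (36.19 to 55.84) and 0.13-fold, and the 53 megakaryocyte-like cells next, at 0.199-fold. Neuron-like cells stood at 0.28-fold, 82.78 CPM (40.86 to 150.2 in 5 libraries).

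Among the G2M genes, Hmgb2 and Ube2c had the highest UMI levels. Hmgb2 (ENSMUSG00000054717) was highest in neural crest mesenchyme-like cells, at 1717 CPM, with libraries at 1532, 1661, 1640, 1802, 1893 and 1808. In cardiomyocyte-like cells they gave 832.9, 860.4, 887.6, 1078, 1083 and 1130 CPM. In erythroid-like cells they gave 516.6, 552.1, 549.6, 651.1, 676.4 and 595 CPM. The 3 sets did not overlap. Against all other gated cells the erythroid-like ratio was 0.405 for Hmgb2, 0.489 for Ube2c, 0.389 for Cdk1 and 0.402 for Cenpf. All lay above the 0.36 of the median gene, so their lowest place there was not particular to them.

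Ube2c (ENSMUSG00000001403), the ubiquitin-conjugating enzyme that starts destruction of the mitotic cyclins, ran against the other G2M genes in cardiomyocyte-like cells. It stood there at 572 CPM, with libraries at 564.1, 491.6, 546.9, 619.2, 595.7 and 645.9, above the 420.2 to 468.7 CPM of neural crest mesenchyme-like cells. Branchiomeric muscle-like cells were higher in the pool, at 628.1 CPM, but their 4 libraries ran from 217.5 to 1030 CPM. Erythroid-like cells were lowest at 231.9 CPM (216.6 to 260.5).

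Cdk1 (ENSMUSG00000019942), whose promoter is printed above, was highest in endothelium-like cells, at 306.6 CPM, with libraries at 280, 291.7, 291.1, 345.8, 346.6 and 300.5. The cardiomyocyte-like libraries gave 147.6, 144.8, 143.6, 179.8, 174.6 and 188.3 CPM. In erythroid-like cells they gave 79.17, 92.82, 86.61, 93.54, 91.42 and 81.79 CPM, a 3.54-fold range from highest to lowest class. The limit given under Hmgb2 holds for this lowest place. Endothelium-like cells were 1.54-fold above all other gated cells in Cdk1, while their median ratio over the 20 G2M members was 1.03.

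Cenpf (ENSMUSG00000026605), a kinetochore protein, was highest in branchiomeric muscle-like cells at 335 CPM and in endoderm-like cells at 327.3 CPM. The endoderm-like libraries gave 366.1, 330.4, 395.6, 275.6, 315.9 and 314.7 CPM, and the 4 branchiomeric muscle-like libraries 176.2 to 409.6, so these overlapped. Erythroid-like cells were lowest at 97.41 CPM, with libraries from 82.15 to 106.

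Mki67 (ENSMUSG00000031004), which encodes the Ki-67 protein used in histology to mark dividing cells, had a class order of its own. It was highest in erythroid-like cells, at 244.4 CPM, with libraries at 239.6, 279.6, 298.6, 177.9, 191.4 and 180.3. In cardiomyocyte-like cells, the lowest class, they gave 79.53, 80.41, 78.71, 62.12, 63.07 and 67.23 CPM. Against all other gated cells it was 1.82-fold in the former and 0.459-fold in the latter. It was the 1 G2M member above 1 in erythroid-like cells, and it was named after its values were seen.

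The other G2M members were given by their range. Branchiomeric muscle-like cells, 128 cells in 4 usable libraries, were highest for Top2a, Ccnb1, Aurkb, Plk1, Tpx2, Nusap1, Kif11 and Kif23. Paraxial mesoderm-like cells were highest for Cenpe and Bub1, myeloid-like cells for Ccna2, Aurka and Birc5, smooth muscle-like cells for Ccnb2 and megakaryocyte-like cells for Cdc20. Erythroid-like cells were lowest for 9 of these 15, neuron-like cells for Ccna2, Aurka, Birc5 and Kif11, cardiomyocyte-like cells for Aurkb and megakaryocyte-like cells for Kif23. In erythroid-like cells 80.9% of all genes tested were at or past 1.5-fold lower than in other gated cells. A lowest place there is therefore not particular to these members. The highest class was 1.69 times (Ccnb2) to 3.07 times (Bub1) the lowest.

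**Figure D4:**
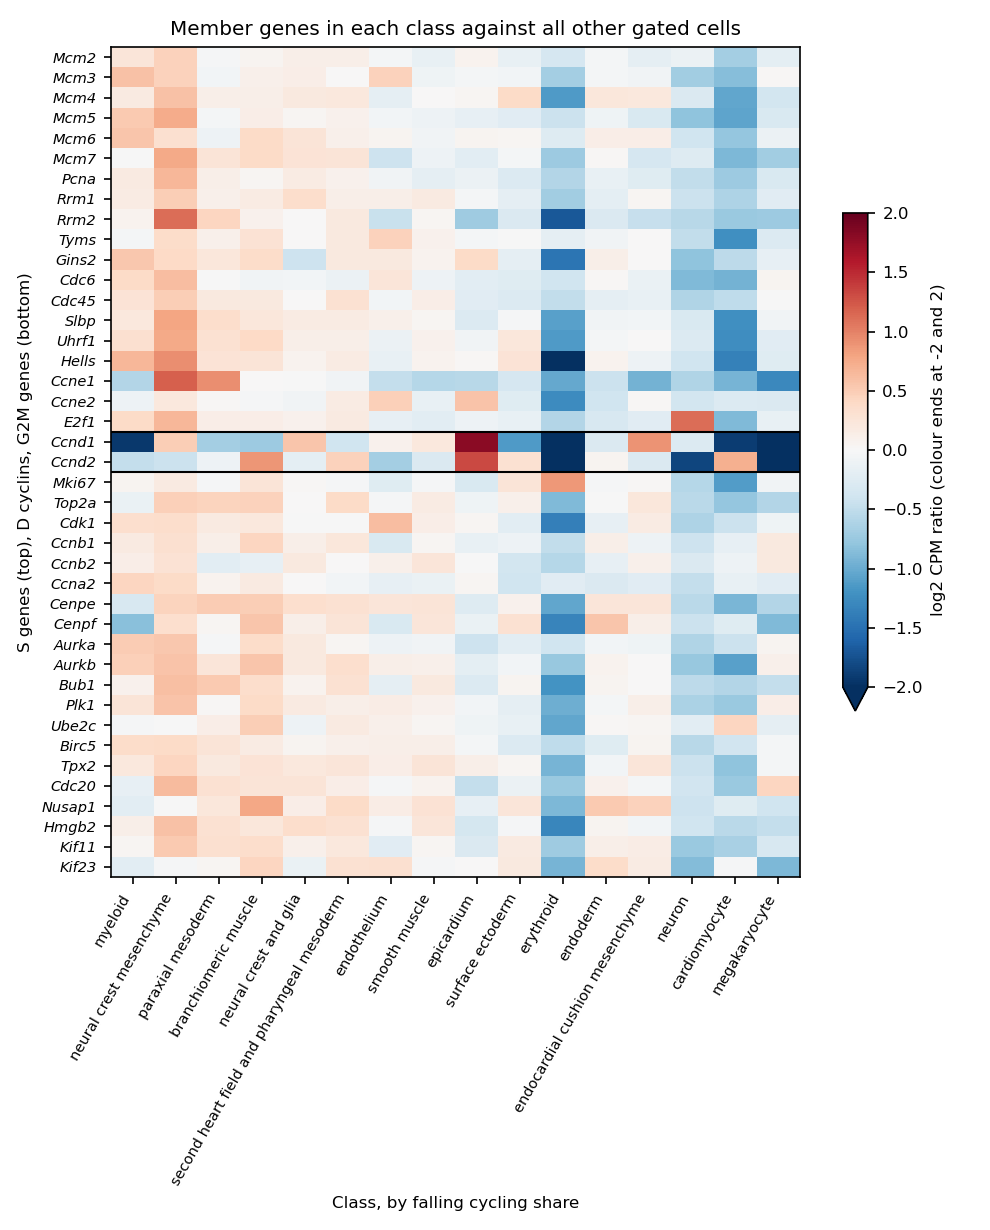
Log2 ratio of the CPM of each of the 41 members (rows) in each class to that in all other gated cells (columns, by falling cycling share); colours end at 4-fold lower and 4-fold higher. Neural crest mesenchyme-like cells are warm across the S genes and most G2M genes, erythroid-like cells are cold except for Mki67 (1.82-fold), and cardiomyocyte-like cells are cold except for Ccnd2 (1.64-fold) and Ube2c (1.34-fold). In erythroid-like cells 80.9% of all genes tested were at or past 1.5-fold lower.

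Counts of members are set beside the same count over the 10562 genes of at least 5 CPM, since no chance test was made. In cardiomyocyte-like cells 26 of 41 members were at or past 1.5-fold lower than in all other gated cells, 16 of 19 S genes, 1 D cyclin and 9 of 20 G2M genes. The background was 27.0% of all genes tested. The members' median ratio was 0.601, and 0.844 for all genes, so the whole class was shifted by -0.24 on the log2 scale. Relative to that median gene 15 members were lower, 11 of them S genes and 3 G2M genes, where the background was 17.0%. The lowest ratios among S genes were those of Hells (0.391), Uhrf1 (0.421), Slbp (0.426) and Tyms (0.428). Among G2M genes they were Mki67 (0.459), Aurkb (0.471) and Cenpe (0.53), while Kif23 (0.983), Ccnb2 (0.929) and Ccna2 (0.906) lay near 1. At a fold of 2 the count was 9, against 12.7% of all genes.

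In neuron-like cells 13 of 41 members were at or past 1.5-fold lower, 6 S genes, 1 D cyclin and 6 G2M genes, where the background was 15.5% of all genes tested. Their median ratio was 0.709 and that of all genes 1.02. The lowest were Ccnd2 (0.28), Cdc6 (0.544), Kif23 (0.548), Gins2 (0.572) and Mcm5 (0.573). E2f1 was the 1 member at or past 1.5-fold higher (2.18-fold), against a background of 13.3%. Without library 5 the count was 8, against 15.9% of all genes. Leaving out each other library gave 11 to 15. At a fold of 2 the count was 1, against 10.0%, so the members' share was above that of all genes at 1.5-fold and below it at 2-fold. Cdk1 (0.65), Cdc45 (0.656), Aurka (0.66) and Ccne1 (0.661) lay just past the threshold.

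In erythroid-like cells the reference decided the direction. Taken as CPM, 28 of 41 members were at or past 1.5-fold lower, but so were 80.9% of all genes tested, whose median ratio was 0.36 (-1.47 on the log2 scale). The members' median ratio was 0.543. Relative to the median gene 3 members were lower, against a background of 35.7%, and 21 were higher, 11 S and 10 G2M genes, against 28.4%. Rrm2 (0.309), Hells (0.157), Ccnd1 (0.0435) and Ccnd2 (0.13) were below the median gene as well. Hmgb2 (0.405), Cdk1 (0.389), Cenpf (0.402) and Ube2c (0.489) were below other cells in CPM and above the median gene. In UMIs per cell, with no scaling, the S and G2M members summed to 237.5 in erythroid-like, 203.8 in cardiomyocyte-like, 280.8 in neural crest mesenchyme-like and 143.8 in neuron-like cells.

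In neural crest mesenchyme-like cells 12 of 41 members were at or past 1.5-fold higher, 10 S and 2 G2M genes, where the background was 9.49%. The members' median ratio was 1.4 and that of all genes 1.07. Relative to the median gene 7 were higher, all of them S genes, where the background was 6.33%. Ccne1 (2.28-fold), Rrm2 (2.16-fold) and Hells (1.91-fold) led. The S genes' median ratio was 1.54 and that of the G2M genes 1.32, while Ube2c (0.995), Nusap1 (0.993) and Kif23 (0.979) were level with other cells.

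In neuron-like and cardiomyocyte-like cells, the cells with the highest level of their class's markers were least often called cycling. Cells of each library were divided into 3 equal parts by the share of their UMIs from class markers, and the markers were then left out before thinning. This division was added after the class values were seen. In neuron-like cells the cycling share was 84.2% (75.3 to 90.9) in the part with the lowest marker share, 64.1% in the middle part and 36.3% (26.4 to 47) in the highest. It was lower in the highest part in 4 of 4 libraries with 10 cells or more in each part.

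In cardiomyocyte-like cells the share was 72.4% (69.6 to 75), 72.8% (70.1 to 75.5) and 40.7% (37.8 to 43.7). The highest part was below the lowest in 6 of 6 libraries, by 28.8 to 37 percentage points. Median UMIs per cell from the lowest to the highest part were 35872, 48818 and 41045 in cardiomyocyte-like cells and 27590, 25462.5 and 35097 in neuron-like cells. The part of depth in the difference was not tested. In erythroid-like cells the shares were 96.6%, 96.2% and 94.5%, and in endothelium-like cells 88%, 86.5% and 83.6%, each lower in the highest part in 5 of 6 libraries. The erythroid markers left out took a median of 27.7% to 34.3% of UMIs in the 3 parts. The erythroid-like shares here lie near the upper limit and are not comparable with the 79.07% given above. The endothelium-like share by the G2M sum alone was 70%, 68.8% and 73.4%, highest in the highest part. The part of doublets and of misplaced cells in the parts with few markers was not tested.

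**Figure D5:**
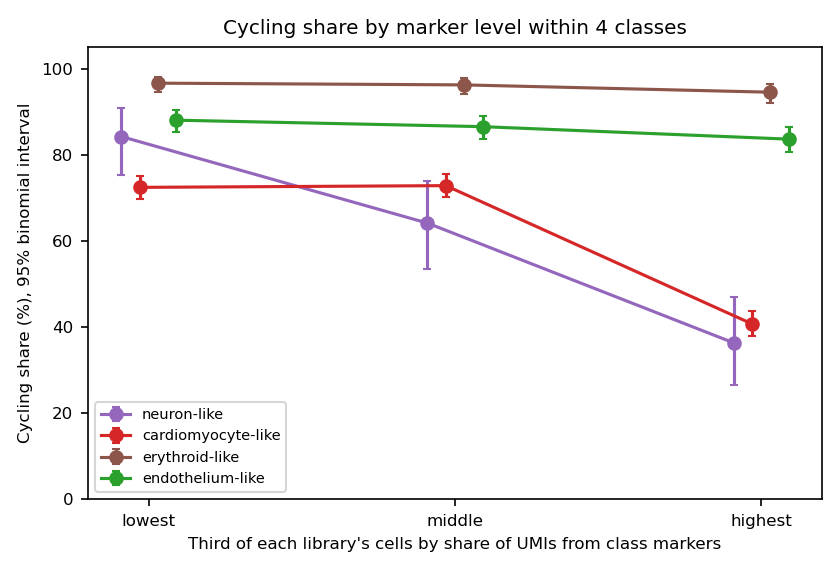
Cycling share (y axis, %, with 95% binomial intervals) in 3 equal parts of each library's cells by the share of UMIs from class markers (x axis), in 4 classes. Neuron-like cells go from 84.2% to 36.3% and cardiomyocyte-like cells from 72.4% to 40.7%, while erythroid-like and endothelium-like cells stay above 83%.

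Single members did not all follow this division. In neuron-like cells the S sum was 2022, 1537 and 727.1 CPM from the lowest to the highest part, and Rrm2 was 236.6, 159 and 56.43 CPM. Ccnd2 was 151.4, 78.22 and 21.65 CPM. E2f1 was highest in the middle part, at 67.49, 96.86 and 40.36 CPM, and Ube2c was nearly level, at 396.3, 404.3 and 379.9 CPM. In cardiomyocyte-like cells Ccnd2 was 531.8, 586.8 and 216.1 CPM and Ccnd1 72.44, 43.38 and 25.01 CPM. The S sum was 1388, 1209 and 741.8 CPM and the G2M sum 3956, 3766 and 2457 CPM there.

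The genes that restrain or drive the cycle outside the 41 members were read from 3 lists. Of 11 Cdk inhibitors, pocket proteins and the antiproliferative genes Btg1 and Btg2, 9 passed the level filter. In neuron-like cells 4 of these were at or past 1.5-fold higher and 1 lower, against 13.3% and 15.5% of all genes tested. In cardiomyocyte-like cells 2 of the 9 were higher, against 12.7% of all genes, and none lower. These counts were not particular to the 2 classes. Surface ectoderm-like and megakaryocyte-like cells also had 4 higher, against 14.4% and 12.9%, and 2 lower, against 11.2% and 38.5%. Endothelium-like, endoderm-like and neural crest and glia-like cells also had 2 higher, against 13.5%, 13.7% and 7.88%. Cdkn1a, the inhibitor p21, stood at 48.9 CPM in neuron-like cells (39.95 to 74.06 in 5 libraries), against 1.57 CPM (1.22 to 1.97) for neural crest mesenchyme-like cells. It was highest in surface ectoderm-like cells, at 96.06 CPM, and next in branchiomeric muscle-like cells, at 63.25 CPM. Btg2, an antiproliferative gene, stood at 65.39 CPM in neuron-like cells, against 4.77 CPM for neural crest mesenchyme-like cells. Btg2 was highest in megakaryocyte-like cells, at 77.66 CPM. Neural crest mesenchyme-like cells were the lowest class for both Cdkn1a and Btg2. Against all other gated cells, neuron-like cells stood at 3.83-fold for Cdkn1a and 4.03-fold for Btg2.

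Cdkn1c, the inhibitor p57, was highest in endothelium-like cells, at 4754 CPM, with libraries at 6861, 4425, 6672, 3084, 3054 and 4156. These cells had a cycling share of 85.92%. In cardiomyocyte-like cells Cdkn1c stood at 1443 CPM (1223 to 1609), against 202.2 CPM (188.1 to 219) for neural crest mesenchyme-like cells. Against all other gated cells the cardiomyocyte-like level was 1.42-fold, short of 1.5-fold. Epicardium-like cells stood higher, at 2704 CPM. Cdkn2d, the inhibitor p19, stood at 74.55 CPM (71.22 to 85.78) in cardiomyocyte-like cells, against 22.87 CPM (21.39 to 23.72) for neural crest mesenchyme-like cells. It was highest in megakaryocyte-like cells, at 302.7 CPM.

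Of 8 further kinases, cyclins and phosphatases, 3 were lower in cardiomyocyte-like cells, against 27.0% of all genes, and none higher. In neuron-like cells 2 were lower and 1 higher, against 15.5% and 13.3%. These counts lay near the background. Cdc25a, a phosphatase that activates Cdks, stood at 22.25 CPM in cardiomyocyte-like cells, against 76.97 CPM for neural crest mesenchyme-like cells. Ccnd3, the remaining D cyclin, stood at 49.47 CPM in neuron-like and 207.2 CPM in cardiomyocyte-like cells. Cdk6, a partner of the D cyclins, stood at 18.63 CPM in neuron-like cells, against 62.87 CPM for neural crest mesenchyme-like cells.

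Of 9 further E2F and licensing factors, 7 were lower in cardiomyocyte-like cells, against 27.0% of all genes, and 6 in neuron-like cells, against 15.5%. Among neural crest mesenchyme-like cells 3 were higher, against 9.49%. Orc1, a subunit of the origin recognition complex, stood at 7.3 CPM in cardiomyocyte-like, 9.49 CPM in neuron-like and 25.63 CPM among neural crest mesenchyme-like cells. E2f5 stood at 20.27 CPM in cardiomyocyte-like cells, against 64.2 CPM for neural crest mesenchyme-like cells. E2f8, a repressor of the family, went the other way, at 18.04 and 12.93 CPM. The members of these lists named here were chosen after their values were seen.

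Across the 16 classes, members of a phase varied together only a little more than members of different phases. The median Pearson correlation of log2 CPM was 0.732 over 171 pairs of S genes, 0.67 over 190 pairs of G2M genes and 0.631 over 380 mixed pairs. These are descriptions over 16 classes from shared libraries. No such value was computed for pairs of other genes. In erythroid-like cells 80.9% of all genes tested were at or past 1.5-fold lower, a shift that most pairs of genes share. The correlations are therefore not particular to these members. Bub1 followed the sum of the other G2M genes most closely (0.973) and Uhrf1 that of the other S genes (0.956). Mki67, the 1 G2M member above 1 in erythroid-like cells (1.82-fold), did not follow the other G2M genes (0.00962). E2f1 followed the other S genes weakly (0.435).

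Among 8689 other genes of at least 10 CPM, those whose class pattern was most like the S sum were Pwp1 (0.969), Ercc6l (0.962), Atad5 (0.958), Snrpa1 (0.958) and Snrpg (0.955), by Pearson correlation of log2 CPM over 16 classes. The genes most like the G2M sum were Shcbp1 (0.976), Cdca2 (0.963), Senp1 (0.96), Fbxo5 (0.959) and Tacc3 (0.958). Atad5 was lowest in cardiomyocyte-like cells, at 21.92 CPM, and highest in neural crest mesenchyme-like cells, at 64.74 CPM. Shcbp1 was lowest in erythroid-like cells, at 27.19 CPM, and highest in branchiomeric muscle-like cells, at 68.29 CPM. The other 8 were lowest in erythroid-like cells, where 80.9% of all genes tested were at or past 1.5-fold lower.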

How the data were processed

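UMI counts were deposited as a single matrix over every sample, with its genes and barcodes listed beside it. The labels' descriptions name a chromatin assay, whereas titles, library source and kit name RNA, and the values were read as RNA counts. The submitters' processing notes name CASAVA 1.8, Cell Ranger 5.0.0, Seurat 4 and build mm10. The deposited counts are unscaled whole numbers, and how barcodes were called as cells is not stated in the sources. Reads of near-identical gene copies may be split or lost by the counting.

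Cells with at least 2500 genes and at most 10% mitochondrial UMIs were gated in Python 3.11.15 (NumPy 2.4.6, SciPy 1.17.1, pandas 2.3.3). A marker counted as present at 2 UMIs, and a class needed 3 markers and a lead of 0.1 in the share present. Both thresholds were picked from a grid after marker and class-size tables had been seen. Classes under 50 cells were set aside (27 hepatocyte-like cells). Cells were thinned once to 5000 UMIs (1 gated cell was shallower). Class CPM is the summed UMIs of a member over those of the class, per 1000000. Scrublet scores (scanpy 1.11.5) were turned into calls by taking the top-scoring cells of each library at an expected 0.8% per 1000 cells (2633 calls, 1639 of them in gated cells). Called cells stayed in the values unless stated. The comparison of fold counts was tested on simulated data. A planned edgeR test of treatment was not run, because barcodes could not be given a sample.

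The members, marker lists and pathway lists were chosen with earlier results of these data known. All 41 members are accounted for. Those given by library are, in each role, the 2 with the highest pooled CPM and the 2 with the largest ratio of highest to lowest class, at 10 CPM or more, and outside them the 5 genes most like each sum. The motif forms and printed promoters were chosen after several forms had been counted.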

Additional observations from a re-analysis of the deposited data

How the results depend on the processing

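No paired analysis was possible because no library could be given a sample or treatment, so no groups were compared. The cycling share over all gated cells (85.9%) was 84.77% at a gate margin of 0.2, 85.43% without cells called as doublets, 85.35% thinned to 8000 UMIs, 98.2% with no thinning, 88.04% at a cut of 7, 81.76% at a cut of 10, 82.66% without Hmgb2 and 87.56% with class-high genes left out. The S to G2M ratio (0.4448) was 0.4509 at a gate margin of 0.2, 0.4422 with markers present at 3 UMIs, 0.4466 without doublets, 0.6512 without Hmgb2, 0.4334 as the median over classes, and 0.4388 to 0.4542 leaving out each library in turn. The count of members lower in neuron-like cells (13) was 1 at a fold of 2 (10.0% of all genes), which turned its share from above to below that of all genes, and 8 to 15 leaving out each library (15.3% to 15.9% of all genes). That in cardiomyocyte-like cells (26) was 9 at a fold of 2 (12.7% of all genes) and 15 relative to the median gene (17.0% of all genes). The cause of these changes was not tested, except that a stricter fold calls fewer genes by construction. The order of cardiomyocyte-like and neuron-like cells in cycling share turned in some settings. In erythroid-like cells members were mostly lower as CPM, as were 80.9% of all genes at 1.5-fold, and mostly above the median gene. Of the class and gene values under the alternatives, 322 stayed within their counting interval and 200 moved beyond it. Cardiomyocyte-like and neuron-like cells had the lowest cycling shares in each setting, megakaryocyte-like and myeloid-like cells left out. The 3 classes of 53 to 128 cells had wide counting intervals.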

Other observations

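Library values fell apart in the S to G2M ratio. Over all gated cells it was 0.4708, 0.4572 and 0.4811 in libraries 1, 2 and 3 and 0.4298, 0.4056 and 0.4331 in libraries 4, 5 and 6, with no overlap. This division of the libraries was read from the values themselves, and nothing used here ties it to a treatment. The mix of classes differed between libraries, and the parting did not hold in every class. In neural crest mesenchyme-like cells library 2 (0.4801) lay below libraries 4 (0.4986) and 6 (0.4906), in erythroid-like cells library 2 (0.4245) lay below them too, and in endoderm-like cells library 3 (0.3489) was the lowest. In smooth muscle-like cells library 6 (0.4193) lay above libraries 2 and 3 (0.4003 and 0.3976). In paraxial mesoderm-like cells library 4 (0.4588) lay above libraries 2 and 3 (0.4529 and 0.4412). The remaining classes with all 6 libraries kept the parting. In the 11 classes with all 6 libraries, library 1 had the highest ratio in 6 and library 5 the lowest in 6. For Hmgb2, the libraries gave, in epicardium-like cells, a class picked after its values were seen, 914.4, 884.2, 1018, 1239, 1336 and 1292 CPM. Without Hmgb2 the ratios of libraries 1 to 6 were 0.6589, 0.6557, 0.6811, 0.6489, 0.6175 and 0.6512. The libraries parted the same way for Mki67 in erythroid-like cells (239.6, 279.6, 298.6, 177.9, 191.4 and 180.3 CPM) and for Ccnd1 in epicardium-like cells (480.1, 531.2, 501.2, 300.2, 314.7 and 368.7 CPM), both picked after their values were seen. Libraries 1 and 2 each hold exactly 10000 barcodes and the others 7533 to 8845.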
